A study of Mus musculus with 5 samples.

Results

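The major histocompatibility complex (MHC) genes and the genes that prepare peptides for them were followed in RNA sequencing of mouse eye tissue. The members are the loci whose gene name starts with H2-, the mouse name for the MHC, together with B2m, Tap1, Tap2, Tapbp, Psmb8, Psmb9, Psmb10, Ciita, Nlrc5, Cd74, Cd1d1, Mr1 and Erap1. This rule found 53 of the 23141 named loci. Uveal tissue of adult wild-type mice gave 2 libraries, and eye tumors of adult mice with the genotype AAV5-Cre;Lats1/2 fl/fl gave 3. In those mice a viral vector carried Cre recombinase, the enzyme that removes DNA between loxP sites, into eyes whose Lats1 and Lats2 alleles were floxed. Lats1 and Lats2 encode the kinases of the Hippo pathway that restrain YAP and TAZ. The labels name neither the promoter that drives Cre, the cells that took up the virus, the strain, nor the cell of origin of the tumors, and no untreated floxed or Cre-only eye is among the samples. The labels do not tie each library to an animal of its own, and the p-values then cover the spread between these samples, which may be technical.

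Class I molecules pair a heavy chain with beta-2-microglobulin and show peptides from inside the cell to CD8 T cells. The proteasome cuts those peptides, the TAP transporter moves them into the endoplasmic reticulum, and tapasin and ERAP1 help to load and trim them. Class II molecules are alpha-beta pairs that show peptides taken up from outside to CD4 T cells, are guided by the invariant chain CD74, and are made mainly by macrophages, dendritic cells and B cells. CIITA switches on class II genes and NLRC5 class I genes, through a shared upstream element whose Y box is bound by NF-Y. The healthy uvea, the layer formed by iris, ciliary body and choroid, holds resident macrophages and dendritic cells.

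The promoters of members from each class are shown because most tested class II and class I genes rose in these data. Other members whose window also holds a Y box, such as H2-M10.3, were silent. Each line gives the 250 bases before the transcription start in RefSeq, read 5′ to 3′ on the gene's strand, in GRCm38.p6 coordinates. Capitals mark the Y box GATTGG, the X2 or CRE box TGACGTCA, the interferon regulatory factor (IRF) site GAANNGAAA and the kappa B site GGGATTCCC, on either strand, and none of the marked motifs overlaps another. A Y box on the other strand reads as its reverse complement.
H2-Aa (chr17:34287824-34288073, minus strand): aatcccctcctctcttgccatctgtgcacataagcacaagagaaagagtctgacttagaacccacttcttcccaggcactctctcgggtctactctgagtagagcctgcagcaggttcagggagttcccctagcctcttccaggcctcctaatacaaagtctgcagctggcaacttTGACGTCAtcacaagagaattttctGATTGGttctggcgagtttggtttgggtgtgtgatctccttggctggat
H2-Eb1 (chr17:34305617-34305866, plus strand): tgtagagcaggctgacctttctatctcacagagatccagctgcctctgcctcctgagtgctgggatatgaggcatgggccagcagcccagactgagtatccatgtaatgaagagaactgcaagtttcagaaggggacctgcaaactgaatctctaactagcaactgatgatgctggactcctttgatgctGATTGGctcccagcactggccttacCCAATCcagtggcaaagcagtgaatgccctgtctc
H2-Ob (chr17:34238655-34238904, plus strand): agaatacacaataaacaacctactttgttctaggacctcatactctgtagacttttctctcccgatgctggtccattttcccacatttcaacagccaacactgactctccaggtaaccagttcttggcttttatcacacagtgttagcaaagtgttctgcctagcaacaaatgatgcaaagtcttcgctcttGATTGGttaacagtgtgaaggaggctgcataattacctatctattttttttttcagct
H2-K1 (chr17:34000334-34000583, minus strand): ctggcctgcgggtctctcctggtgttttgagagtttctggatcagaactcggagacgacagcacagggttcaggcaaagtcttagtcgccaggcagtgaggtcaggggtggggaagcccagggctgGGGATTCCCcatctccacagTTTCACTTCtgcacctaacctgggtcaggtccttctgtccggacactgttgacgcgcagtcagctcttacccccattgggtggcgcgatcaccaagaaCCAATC
H2-Q6 (chr17:35424600-35424849, plus strand): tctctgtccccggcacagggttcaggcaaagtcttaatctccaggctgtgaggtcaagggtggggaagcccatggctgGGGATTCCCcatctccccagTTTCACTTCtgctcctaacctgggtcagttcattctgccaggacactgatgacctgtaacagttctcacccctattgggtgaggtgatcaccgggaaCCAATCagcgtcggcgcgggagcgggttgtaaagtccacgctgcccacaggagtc
H2-M2 (chr17:37483555-37483804, minus strand): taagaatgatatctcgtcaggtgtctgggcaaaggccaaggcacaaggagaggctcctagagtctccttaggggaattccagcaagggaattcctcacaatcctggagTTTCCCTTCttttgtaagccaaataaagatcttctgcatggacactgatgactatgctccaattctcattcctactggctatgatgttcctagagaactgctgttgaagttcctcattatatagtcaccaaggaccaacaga
H2-M10.3 (chr17:36368418-36368667, minus strand): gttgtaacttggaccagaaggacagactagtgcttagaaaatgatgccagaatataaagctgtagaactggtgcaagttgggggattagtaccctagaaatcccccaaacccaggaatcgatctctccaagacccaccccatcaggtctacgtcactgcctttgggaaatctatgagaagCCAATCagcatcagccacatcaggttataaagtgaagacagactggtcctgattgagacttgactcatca
H2-Aa, H2-Eb1 and H2-Ob are class II genes, H2-K1 is a classical class I gene, and H2-Q6, H2-M2 and H2-M10.3 are non-classical class I genes. The H2-K1 window covers the first 14 bases of an exon in the GENCODE annotation, the H2-Ob window the first 2, and the H2-Eb1 window 88 bases of an antisense RNA, while the windows of H2-Aa, H2-Q6, H2-M2 and H2-M10.3 lie outside annotated exons. RefSeq windows were found for 38 members. The Y box was in all 8 class II windows, both classical class I windows and 14 of 21 non-classical windows, against 14.6% of 32851 windows of that length over all genes. Some of these member windows cover annotated exons, with all 250 bases for H2-D1, 154 for H2-T23 and 119 for H2-DMb1. The H2-DMa window lies inside the annotated gene. The kappa B site stood in 4 member windows, those of H2-K1, H2-D1, H2-Q6 and H2-Q7, and in 0.301% of all windows. IRF sites were found in 8 member windows, all of class I genes, and in 6.31% of all. Only the H2-Aa window held the exact X2 box, which 1.55% of all windows held. A match describes letters in the window, not a bound site.

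Library depth was similar, with 12434957 to 14149789 estimated fragments at named loci. Levels are given in FPKM, the authors' fragment counts scaled for transcript length and library depth. Lats1 read 7.55 and 8.86 FPKM in wild type and 3.43, 3.90 and 2.94 in tumors, a fall of 1.21 on the log2 scale (adjusted p = 0.0115). Lats2 read 20.05 and 20.2 and 12.6, 17.03 and 14.3 FPKM and did not pass the test (adjusted p = 0.0577).  The 8 melanocyte markers summed to 6754 and 6526 FPKM in wild type and to 10.6 to 79.2 in tumors. Of these markers 7 fell, against 15.4% of all tested loci. The exception was Sox10, with 84.3 and 79.3 FPKM in wild type and 18.5, 49.1 and 1.73 in tumors (adjusted p = 0.288). Whether cells of melanocyte origin remained in the tumors was not tested. Retinal pigment epithelium and photoreceptor markers were near absent in tumors, with sums of at most 46.9 and 4.71 FPKM. The libraries are bulk tissue, in which fewer cells of a type and less RNA per cell cannot be told apart. Tumor library 1 stood apart by its skeletal muscle markers, 4520 FPKM against 242 to 328 in the other libraries.

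Most detectable members were higher in tumors. Of the 53 members, 40 passed the filter on low counts, 31 of these rose, 1 fell and 8 did not pass the test. Over all 15241 tested loci 18.7% rose and 15.4% fell. The median difference between tumor and wild type, as log2 fold change, was 3.11 over the tested members and 0.05 over all tested loci. Members at 0 in both wild-type libraries have no finite fold, and with these at their lower bound the members' median was 2.87. The filter was passed through the tumor libraries alone by 8 of the members. Of the other 32, whose wild-type level was also above it, 24 rose and 1 fell. The groups did not overlap for 37 of the 40 tested members, against 69.5% of all tested loci.

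**Figure D1:**
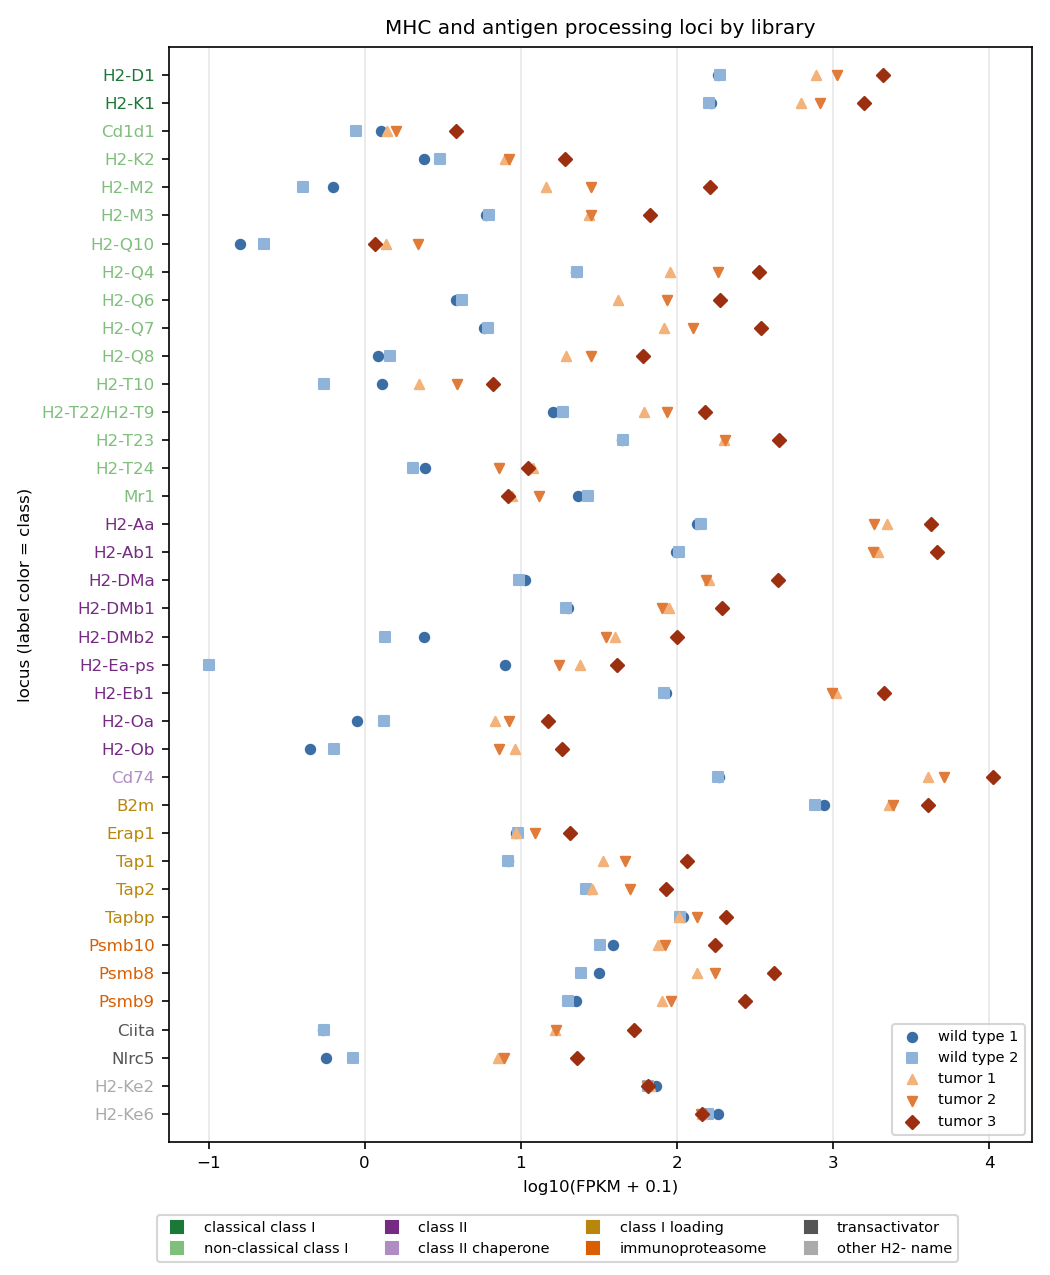
Level of each of the 38 members with a group mean of at least 1 FPKM, as log10(FPKM + 0.1), in each of the 5 libraries (2 wild type in blue, 3 tumor in orange to brown). Each point is a library, and the points of most members form a tight wild-type pair on the left and a wider set of tumors on the right, with tumor 3 farthest right, whereas Mr1 runs the other way and H2-Ke2 stays in place.

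The classical class I heavy chains H2-K1 and H2-D1, which present peptides to CD8 T cells in nearly all nucleated cells, both rose. H2-K1 (chromosome 17, 33996017 to 34000347, minus strand, GRCm38) read 166 and 161 FPKM in wild type and 624, 826 and 1587 in tumors 1, 2 and 3. H2-D1 (chromosome 17, 35262730 to 35267499, plus strand) had 183 and 188 FPKM in wild type and 775, 1058 and 2084 in tumors. The wild-type libraries nearly coincided, every tumor lay above them, and tumor 3 was the highest for both genes. The log2 fold change was 2.68 (SE 0.50, adjusted p = 0.0191) for H2-K1 and 2.86 (SE 0.53, adjusted p = 0.0189) for H2-D1. The balance between them moved little, with 0.855 to 0.907 FPKM of H2-K1 per FPKM of H2-D1 in wild type and 0.761 to 0.805 in tumors. Part of their sequence recurs in other class I genes: 9.63% of the 50-base windows of H2-K1 and 12.8% of those of H2-D1 were found in another annotated gene, so reads could have been split between them.

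Among 28 non-classical class I members, 15 were tested, of which 12 rose, 1 fell and 2 did not pass the test. The median log2 fold change was 2.80, or 2.72 with H2-Q2 at its lower bound. Of the 12 that were above the filter in wild type, 9 rose and 1 fell, while H2-M2, H2-Q2 and H2-Q10 passed it through the tumor libraries alone. The Qa-2 genes H2-Q6 and H2-Q7, which encode a lipid-anchored surface molecule, were low in wild type and high in tumors. H2-Q7 read 5.71 and 6.07 FPKM in wild type and 82.97, 127 and 347 in tumors, with a log2 fold change at 5.04 (SE 0.82, adjusted p = 0.0144). H2-Q6 read 3.76 and 4.12 and 41.8, 86.7 and 188 FPKM, a change of 4.71 (SE 0.71, adjusted p = 0.0126). H2-Q8, from the same gene cluster, read 1.12 and 1.36 and 19.3, 28.0 and 60.3 FPKM and rose by 4.88 (SE 0.66, adjusted p = 0.01001). H2-Q4, the Q gene with the highest wild-type level, went from 22.6 and 22.8 FPKM to 90.8, 182 and 335 and rose by 3.20 (SE 0.63, adjusted p = 0.0217). For these genes every tumor exceeded both wild-type libraries, with tumor 1 the lowest tumor and tumor 3 the highest. Of their windows 32.0% for H2-Q6, 26.4% for H2-Q7 and 21.8% for H2-Q4 recur in another gene, so the split among them is uncertain.

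Qa-1, the product of H2-T23 that shows leader peptides of other class I chains to the NKG2A receptor, rose from 44.1 and 44.9 FPKM to 199, 203 and 450.2 FPKM (log2 fold change 2.72, SE 0.48, adjusted p = 0.0169). The locus of H2-T22 and H2-T9, ligands of some gamma-delta T cells, went from 16.0 and 18.6 to 61.6, 86.4 and 152 FPKM and rose by 2.59 (SE 0.45, adjusted p = 0.0171), and 34.5% of the windows of H2-T22 recur elsewhere, mostly in H2-T10. H2-M3, which presents formylated bacterial peptides, went from 5.86 and 6.18 to 27.3, 27.9 and 66.9 FPKM and rose by 2.80 (SE 0.52, adjusted p = 0.0190). Tumors 1 and 2 were nearly level for H2-T23 and H2-M3, and tumor 3 lay well above them. H2-T24 broke that order, with 2.34 and 1.95 FPKM in wild type and 11.9, 7.10 and 11.0 in tumors, tumor 1 being the highest, and rose by 2.16 (SE 0.29, adjusted p = 0.00992). The pseudogene H2-K2 went from 2.32 and 2.92 to 7.81, 8.36 and 19.1 FPKM and rose by 1.99 (SE 0.47, adjusted p = 0.0323). H2-T10 had 1.19 and 0.449 FPKM in wild type and 2.13, 3.81 and 6.56 in tumors, with groups apart but an adjusted p of 0.0548. It passed the test in DESeq2 (adjusted p = 0.00450), and 32.9% of its sequence windows recur elsewhere, mostly in H2-T22.

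H2-M2 differed from the other class I genes in size and in spread. The gene (chromosome 17, 37480851 to 37483552, minus strand) was nearly silent in wild type, at 0.522 and 0.304 FPKM, and read 14.4, 28.2 and 164 FPKM in tumors 1, 2 and 3. Its log2 fold change of 7.61 had an SE of 1.62 (adjusted p = 0.0259), and without tumor 3 it was 5.91. The gene passed the filter on low counts through the tumor libraries alone, with 10 and 6 fragments in wild type. Tumor 3 stood 7.69 times above the mean of tumors 1 and 2, the largest such ratio among the 40 tested members, whose median was 2.24. Per unit of H2-K1, H2-M2 read 0.00189 and 0.00315 in wild type and 0.0230, 0.0341 and 0.103 in tumors. Its promoter window, printed above, has an IRF site and no Y box. Only 1.61% of its sequence windows occur in another gene, so exact sharing of its reads with other genes is limited.

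H2-Q10, whose product is a secreted class I chain, had 0.0587 and 0.127 FPKM in wild type and 1.28, 2.08 and 1.06 in tumors. These are 3 fragments in wild type and 78 in tumors, a ratio of 16.7 at equal depth (95% counting interval 5.52 to 82.96, adjusted p = 0.0167 in the test over all loci). Tumor 3 was the lowest of the tumors here. H2-Q2 had no fragment in wild type and 27 in tumors, at least 2.91-fold higher against a floor of 3 fragments per library (adjusted p = 0.0421). Without tumor 1 or tumor 3 the gene fell below the filter on low counts, and DESeq2 lost the call whichever tumor was left out (adjusted p = 0.161, 0.0514 and 0.159 without tumor 1, 2 and 3). H2-Bl, a pseudogene in some strains, had 3 and 34 fragments, 7.30 times as many in tumors (2.30 to 37.1), and H2-Q1 had 2 and 11, a ratio of 3.54 whose interval of 0.773 to 32.9 includes no change. Intervals and floors cover counting error only.

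The H2-M genes other than H2-M2 and H2-M3 were silent or nearly so. H2-M1, H2-M10.1, H2-M10.3, H2-M10.4, H2-M10.5, H2-M10.6 and H2-M11 had no fragment in any library, which allows at most 3 fragments in each. H2-M10.2 and H2-T3 had fragments in tumor 2 only, 1 and 2, and H2-M9 in tumors 1 and 3. H2-M5 alone of the untested members ran the other way, with 10 and 13 fragments in wild type against 7, 6 and 2 in tumors. All 7 genes with no fragment carry a Y box in the promoter window, as the H2-M10.3 line shows. That line holds no other marked motif.

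Of the class I-like genes outside chromosome 17, Mr1 fell and Cd1d1 did not pass the test. MR1, which shows vitamin B metabolites of microbes to MAIT cells, was the only member that fell. Mr1 (chromosome 1, 155127277 to 155146814, minus strand) had 23.3 and 26.7 FPKM in wild type and 8.65, 13.0 and 8.19 in tumors, with no overlap, a fall of 1.27 on the log2 scale (SE 0.24, adjusted p = 0.0201). Tumor 3, the highest tumor for most members, was the lowest for Mr1. CD1d, which presents lipids to NKT cells, is encoded by Cd1d1 on chromosome 3. Cd1d1 had 1.18 and 0.784 FPKM in wild type and 1.29, 1.48 and 3.75 in tumors, and its difference of 1.18 on the log2 scale did not pass the test (SE 0.64, adjusted p = 0.204).

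All 10 class II members were tested, 9 rose and 1 did not pass the test, with a median log2 fold change of 4.49, or 4.23 with H2-Eb2 at its lower bound. Only 5 of them were above the filter in wild type, and those 5 rose, while H2-DMb2, H2-Eb2, H2-Oa, H2-Ob and H2-Ea-ps passed it through the tumor libraries alone. The alpha and beta chains of I-A, the class II molecule common to laboratory strains, were the most abundant. H2-Aa (chromosome 17, 34282744 to 34287823, minus strand) had 134 and 142 FPKM in wild type and 2210.1, 1831 and 4225 in tumors 1, 2 and 3 (log2 fold change 4.37, SE 0.52, adjusted p = 0.00807). H2-Ab1 (chromosome 17, 34257689 to 34269419, plus strand) had 98.7 and 103 FPKM in wild type and 1955, 1812 and 4612 in tumors (log2 fold change 4.84, SE 0.61, adjusted p = 0.00891). The balance of the partner chains shifted: H2-Aa per H2-Ab1 was 1.36 and 1.38 in wild type and lower in every tumor, at 1.13, 1.01 and 0.916. H2-Eb1, the beta chain of I-E (chromosome 17, 34305867 to 34316674, plus strand), had 84.7 and 82.3 FPKM in wild type and 1044, 981 and 2112 in tumors (log2 fold change 4.09, SE 0.50, adjusted p = 0.00833). Tumors 1 and 2 were close for all of these chains and tumor 3 was above them, whereas tumor 2 clearly exceeded tumor 1 for H2-K1 and H2-D1. No window of H2-Ab1 or H2-Eb1 and 0.488% of those of H2-Aa occur in another gene.

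The I-E alpha chain is annotated as H2-Ea-ps, a polymorphic pseudogene, because some strains carry a deletion that silences it. It read 7.82 and 0 FPKM in wild type and 23.9, 17.5 and 41.5 in tumors. Wild-type library 1 held 74 of its fragments and library 2 held none, so the wild-type libraries differ at this gene, and the strain is not given. Its difference of 3.42 on the log2 scale did not pass the test (SE 1.54, adjusted p = 0.144). H2-Eb2, a further I-E beta gene, had no fragment in wild type and 68 in tumors, at least 7.32-fold higher (adjusted p = 0.0136).

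The peptide editors of class II rose as well. H2-DMa, the alpha chain of the DM molecule that exchanges the invariant chain fragment for peptide, had 10.6 and 9.69 FPKM in wild type and 159.6, 153 and 442 in tumors (log2 fold change 4.62, SE 0.67, adjusted p = 0.0115). The DM beta genes split unequally. H2-DMb1 had 20.1 and 19.5 FPKM in wild type and 89.2, 80.1 and 195 in tumors and rose by 2.73 (SE 0.49, adjusted p = 0.0178). H2-DMb2 had 2.31 and 1.25 and 40.3, 35.0 and 99.3 FPKM and rose by 5.06 (SE 0.72, adjusted p = 0.0111). These neighbors share 22.7% and 24.8% of their windows with other genes, chiefly with each other. The DO chains, which inhibit DM and are known best from B cells, were the lowest class II transcripts after H2-Eb2. H2-Oa had 0.795 and 1.24 FPKM in wild type and 6.76, 8.29 and 14.9 in tumors (log2 fold change 3.33, SE 0.54, adjusted p = 0.0146). H2-Ob had 0.346 and 0.535 and 9.13, 7.15 and 18.3 FPKM (log2 fold change 4.86, SE 0.59, adjusted p = 0.00833). The level of H2-Oa per H2-DMa was 0.0749 and 0.128 in wild type and 0.0336 to 0.0543 in tumors.

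CD74, the invariant chain that fills the class II groove during assembly, was the most abundant member in tumors. The Cd74 locus, which also holds a microRNA gene, had 185 and 183 FPKM in wild type and 4073, 5159 and 10553 in tumors, with a log2 fold change at 5.06 (SE 0.66, adjusted p = 0.00933). It took 0.0195% of all named fragments in both wild-type libraries and 0.396%, 0.544% and 0.988% in tumors. All members together took 0.265% and 0.255% in wild type and 1.60%, 1.89% and 3.36% in tumors.

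**Figure D2:**
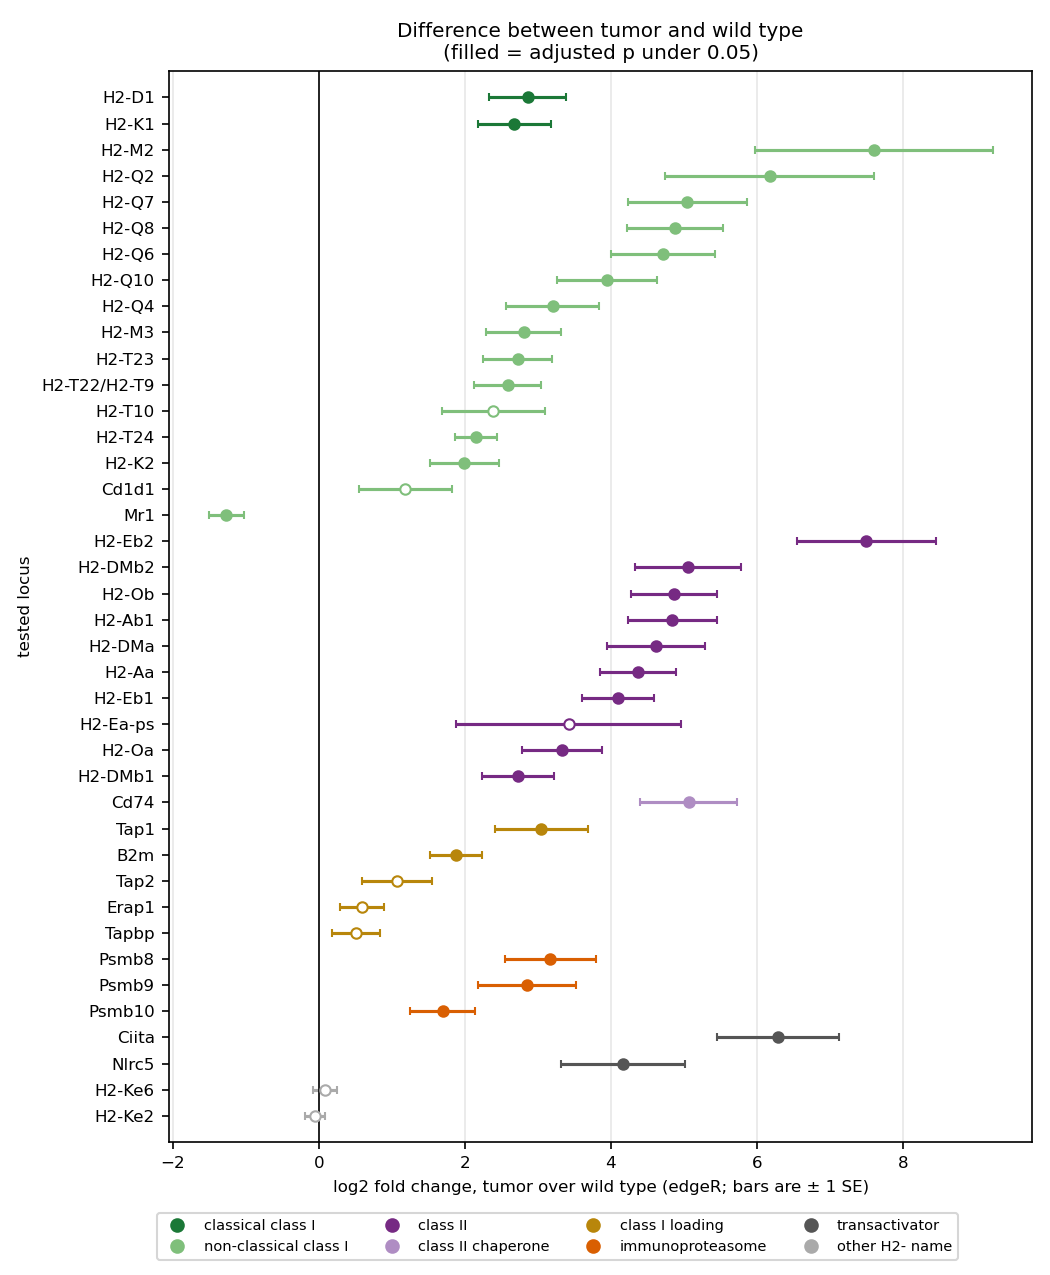
Log2 fold change of tumor over wild type for the 40 tested members, grouped by class, with bars of 1 standard error and filled points for an adjusted p under 0.05. Class II members cluster between 2.73 and 5.06 apart from H2-Eb2, both classical class I members lie near 2.8, non-classical members run from -1.27 (Mr1) to 7.61 (H2-M2), and the class I loading genes Tap2, Erap1 and Tapbp are open points near 1 or below.

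The class I assembly genes divided into those that rose and those that did not pass the test. B2m (chromosome 2, 122147686 to 122153083, plus strand), the light chain of all class I molecules, was the highest member in wild type, with 875 and 772 FPKM, and read 2296, 2415 and 4049.8 in tumors (log2 fold change 1.87, SE 0.36, adjusted p = 0.0201). B2m per H2-D1 went from 4.78 and 4.11 in wild type to 2.96, 2.28 and 1.94 in tumors. Tap1 had 8.14 and 8.12 FPKM in wild type and 33.7, 46.5 and 115 in tumors (log2 fold change 3.05, SE 0.64, adjusted p = 0.0246). Its partner in the transporter, Tap2, had 27.2 and 26.3 and 28.6, 49.7 and 85.2 FPKM, a difference of 1.08 that did not pass (SE 0.48, adjusted p = 0.142). Tumor 1 lay barely above wild type for Tap2, and without that library Tap2 passed the test (log2 fold change 1.39, adjusted p = 0.0452). Tap1 per Tap2 was 0.299 and 0.309 in wild type and 1.18, 0.934 and 1.35 in tumors. Tapbp, which encodes tapasin and shares its locus with Zbtb22, had 109 and 105 FPKM in wild type and 103, 135 and 206 in tumors, overlapping groups and a difference of 0.51 (SE 0.33, adjusted p = 0.273). Erap1, the peptide trimming enzyme, had 9.21 and 9.46 and 9.26, 12.2 and 20.6 FPKM, also with overlap, and a difference of 0.59 (SE 0.30, adjusted p = 0.178).

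The 3 immunoproteasome subunits, which replace the constitutive catalytic subunits and favor peptides that fit class I, all rose. Psmb8 had 31.7 and 24.1 FPKM in wild type and 135, 174 and 420.3 in tumors (log2 fold change 3.17, SE 0.62, adjusted p = 0.0213). Psmb9, encoded beside Tap1 on the opposite strand, had 22.5 and 19.8 and 79.8, 91.8 and 272 FPKM (log2 fold change 2.85, SE 0.67, adjusted p = 0.0328). Psmb10, at a locus shared with Ctrl on chromosome 8, had 39.1 and 32.3 and 76.0, 83.4 and 176 FPKM (log2 fold change 1.70, SE 0.45, adjusted p = 0.0421). That call was lost by limma-trend without the filter on low values (adjusted p = 0.0505) and by DESeq2 without the first or the second wild-type library (adjusted p = 0.0502 and 0.110). The constitutive counterparts Psmb6 and Psmb7 did not pass the test, at 0.07 and 0.23 on the log2 scale (adjusted p = 0.767 and 0.396). Psmb9 per Psmb6 went from 0.122 and 0.125 in wild type to 0.442, 0.601 and 1.44 in tumors. Psmb10 per Psmb7 went from 0.249 and 0.219 to 0.367, 0.564 and 1.07. In tumor 3 the inducible subunit exceeded the constitutive one in both of these pairs, and in no other library. The remaining pair stayed below 1, with Psmb8 per Psmb5 at 0.161 and 0.0417 in wild type and 0.339, 0.291 and 0.557 in tumors. The Psmb5 locus, shared with a microRNA gene, read 197 and 578 FPKM in wild type from 1761 and 1474 fragments, so its FPKM is less certain.

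Both transactivators were near 0.5 FPKM in wild type and rose. Ciita (chromosome 16, 10480059 to 10528418, plus strand) had 0.441 and 0.451 FPKM in wild type and 16.4, 16.7 and 53.0 in tumors, with a log2 fold change at 6.28 (SE 0.83, adjusted p = 0.00966). Nlrc5 (chromosome 8, 94434356 to 94527272, plus strand) had 0.469 and 0.737 and 7.06, 7.69 and 22.9 FPKM, a change of 4.17 (SE 0.85, adjusted p = 0.0236). Ciita was below Nlrc5 in wild type, at a ratio of 0.940 and 0.612, and above it in tumors, at 2.32, 2.18 and 2.31. The wild-type FPKM of Nlrc5 came from 42 and 39 fragments and did not follow them, so the size of this ratio is less certain. By fragments the direction was the same, with 29 of Ciita in each wild-type library. In tumors Ciita had 1351, 1389 and 4212 fragments and Nlrc5 323, 483 and 1421. Each FPKM of Ciita went with 224 and 227 FPKM of H2-Ab1 in wild type and with 119, 108 and 87.1 in tumors.

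H2-Ke2 and H2-Ke6 carry H2- names from their place in the complex but encode a prefoldin subunit and a steroid dehydrogenase. H2-Ke2 had 73.6 and 65.5 FPKM in wild type and 67.3, 64.6 and 65.6 in tumors, a log2 difference of -0.05 (adjusted p = 0.803). H2-Ke6, at a locus shared with Slc39a7, had 183 and 158 and 145, 143 and 145 FPKM. Its difference was 0.08 by counts and -0.24 by limma-trend on log2(FPKM + 1), and neither passed (adjusted p = 0.706 and 0.236).

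The class II sum had a larger ratio between tumor and wild type than the sum of either form of class I. Summed over its loci, classical class I read 349 and 348 FPKM in wild type and 1399, 1884 and 3671 in tumors, a ratio of group means of 6.65. Non-classical class I read 131 and 138 FPKM in wild type and 573, 806 and 1816 in tumors, a ratio of 7.90. Class II read 359 FPKM in both wild-type libraries and 5538, 4924 and 11761 in tumors, a ratio of 20.6. The classical and class II sums were level in wild type, at 1.03 in both libraries, and class II was 3.96, 2.61 and 3.20 times classical class I in tumors. Cd74 per H2-K1 was steadier among tumors, at 6.53, 6.24 and 6.65 against 1.11 and 1.14 in wild type. Classical genes gave 71.6% and 72.7% of class I heavy chain FPKM in wild type and 66.9% to 70.9% in tumors. H2-Aa, H2-Ab1 and H2-Eb1 gave 88.3% and 91.0% of class II FPKM in wild type and 93.1% to 94.1% in tumors. With 2 against 3 libraries an exact permutation test of such a ratio cannot go below a two-sided p of 0.2, so the ratios are given without a test.

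Without tumor 3 the FPKM ratios of tumor to wild-type means were 4.71 for classical class I and 5.12 for non-classical class I. For class II the ratio was 14.6, so the order was the same in FPKM. Fragment counts scaled for library depth but not for transcript length gave 4.89, 4.57 and 14.8 for these classes without tumor 3. With all tumors they gave 6.88, 6.94 and 20.9. Class II thus had the largest ratio by either measure, whereas the order of classical and non-classical class I depended on the measure. Tumor 3 was the highest tumor in 36 of the 40 tested members, against 40.5% of all tested loci. Its median ratio to the mean of tumors 1 and 2 was 2.24 over the tested members and 1.02 over all tested loci. The transactivator sum depended most on it, with a ratio of 39.3 with tumor 3 and 22.8 without it.

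**Figure D3:**
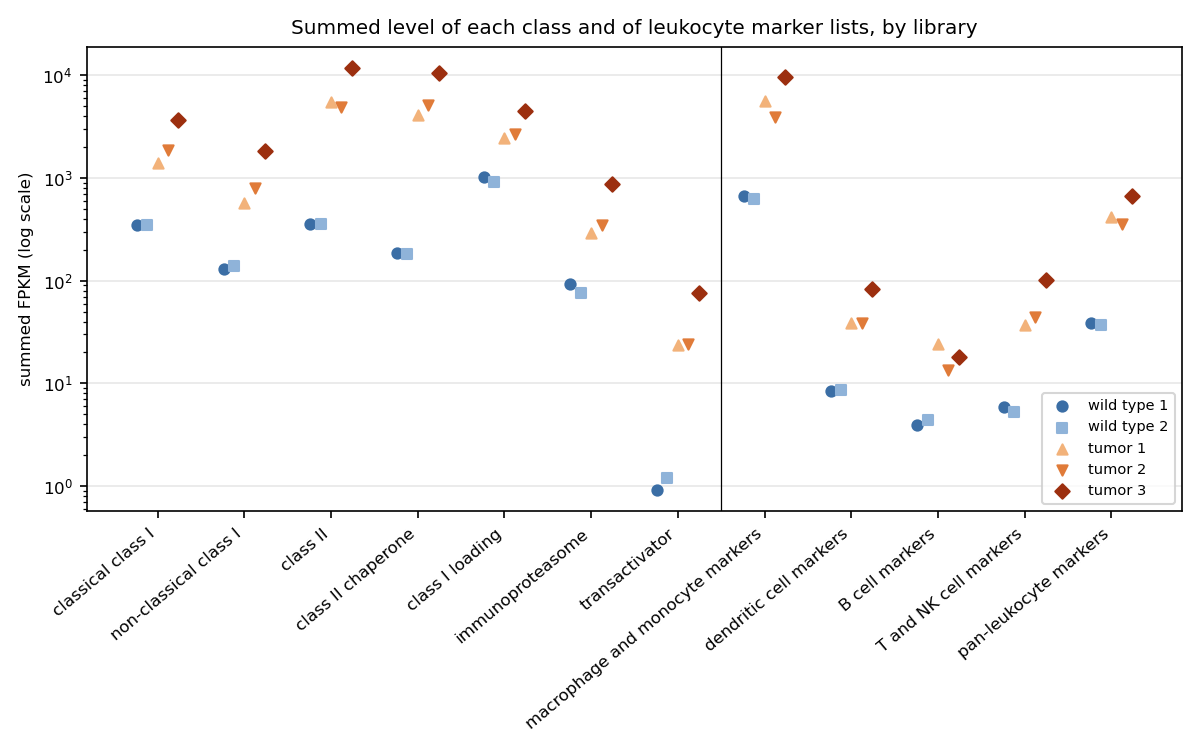
Summed FPKM (log axis) of each class of members on the left of the vertical line and of 5 leukocyte marker lists on the right, 1 point per library. The wild-type points lie close together in each class, class II and Cd74 reach the highest sums, 11761 and 10553 FPKM in tumor 3, the transactivators have the largest ratio of tumor to wild type (39.3), and the macrophage, dendritic, T and NK and pan-leukocyte sums also peak in tumor 3, whereas the B cell sum peaks in tumor 1.

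The sums of the leukocyte marker lists were higher in every tumor than in wild type, and their part in the result was not tested. The order among tumors differed between lists, and the B cell sum peaked in tumor 1. The counts of rises in these lists are to be read against the 18.7% of all tested loci that rose. Of 14 macrophage and monocyte loci, 12 rose, and their sum went from 670.1 and 622 FPKM in wild type to 5586, 3957 and 9691 in tumors. Csf1r and Cd68 were the members of that list that did not pass (adjusted p = 0.0735 and 0.0911). All 4 pan-leukocyte loci rose, from a sum of 37.1 and 39.1 FPKM to between 356 and 664. The dendritic cell list had 5 of 10 loci that rose (sums 8.46 and 8.54 FPKM in wild type, 38.7 to 82.8 in tumors). The B cell list had 4 of 6 tested that rose (3.95 and 4.40 FPKM, then 13.4 to 24.2), and the T and NK cell list 8 of 11 tested (5.23 and 5.90 FPKM, then 36.6 to 101). Of the B cell genes named here, Cd79a and Cd79b rose, to at most 9.59 and 12.7 FPKM, Ms4a1 rose to at most 1.59 FPKM (log2 fold change 2.42, adjusted p = 0.0465), and Pax5 and Cr2 were too low to be tested and at 0 in tumor 3. All 5 dendritic cell rises, all 8 T and NK cell rises and 2 of the 4 B cell rises were of loci that passed the filter through the tumor libraries alone, whereas the macrophage and pan-leukocyte loci were all above it in wild type too.

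Class II per macrophage list was 0.536 and 0.577 in wild type and 0.992, 1.24 and 1.21 in tumors. Classical class I per macrophage list was 0.521 and 0.560 in wild type and 0.250, 0.476 and 0.379 in tumors. Relative to this summed list, class II was higher and classical class I lower in tumors, and in neither case did the groups overlap. The largest terms of the sum were C1qb/C1qc (237 and 212 FPKM in wild type) and C1qa (151 and 127). Log2 fold changes within the list ran from 1.03 (Csf1r) to 4.78 (Cx3cr1), so these ratios depend on the markers summed. Per pan-leukocyte list, class II was also higher and classical class I lower in tumors. The values were 9.20 and 9.66 against 13.3, 13.8 and 17.7 for class II. For classical class I they were 8.94 and 9.38 against 3.35, 5.30 and 5.53. Class II was also higher in every tumor per dendritic cell list (42.5 and 42.0, then 143, 127 and 142) and per B cell list (90.9 and 81.6, then 228, 367 and 653). Classical class I showed no such separation, with 41.3 and 40.8 against 36.2, 48.5 and 44.3 per dendritic cell list and 88.3 and 79.2 against 57.7, 141 and 204 per B cell list. H2-Ab1 per Ptprc, the pan-leukocyte antigen CD45, was 62.5 and 63.7 in wild type and 60.6, 90.7 and 97.7 in tumors, where tumor 1 lay below both wild-type values and tumors 2 and 3 above them.

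**Figure D4:**
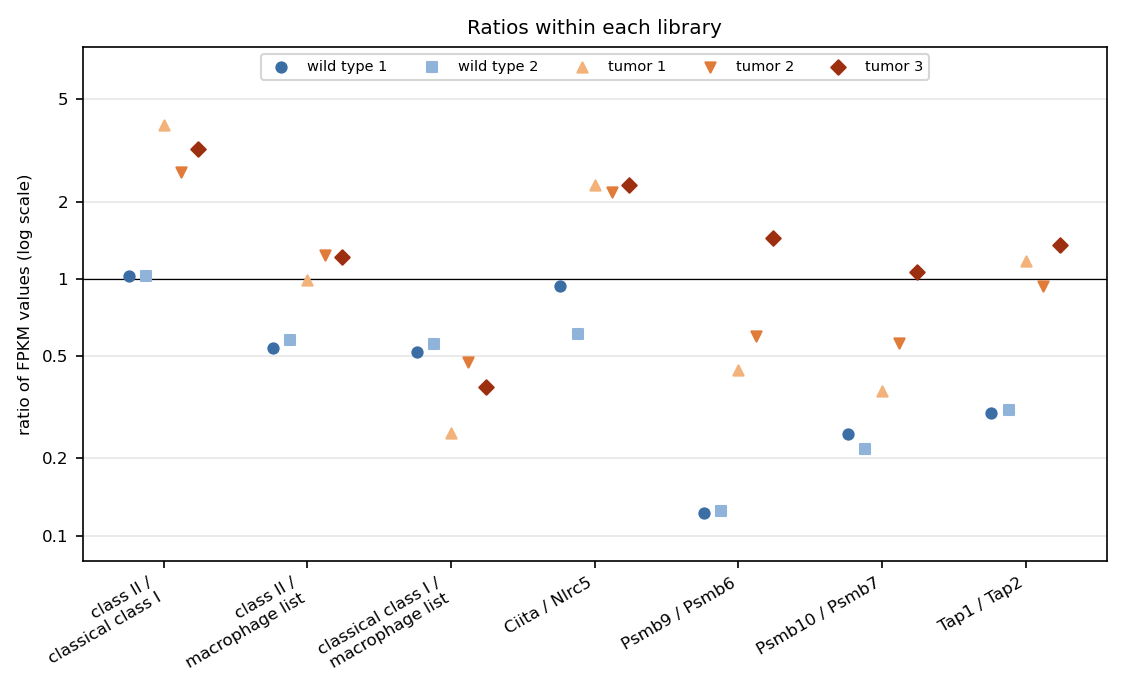
Ratios of FPKM values within each library on a log axis, 1 point per library, with a line at a ratio of 1. Class II over classical class I moves from 1.03 in wild type to between 2.61 and 3.96 in tumors, class II over the macrophage list and classical class I over the same list move in opposite directions, and Psmb9 over Psmb6 and Psmb10 over Psmb7 pass 1 in tumor 3 alone.

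Other genes of these pathways were followed in 4 lists, to be read against the 18.7% of all tested loci that rose and the 15.4% that fell. Of 13 class I pathway loci, 5 rose and none fell, with a median log2 fold change of 0.82. Psme2, a subunit of the interferon-inducible proteasome activator, rose by 1.38 (adjusted p = 0.0364), and its partner Psme1, at 1.19, did not pass (adjusted p = 0.0550). Pdia3, the oxidoreductase of the peptide loading complex, rose by 0.82 (adjusted p = 0.0446), and Lnpep, the endosomal trimming peptidase, by 1.03 (adjusted p = 0.0279). The translocon genes Sec61a1 and Sec61b rose by 0.94 and 0.98 (adjusted p = 0.0191 and 0.0494).

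Of 11 class II pathway loci, 4 rose and 2 fell, a share of falls near that of all loci, with a median of 0.26. Ctss, the cathepsin that cuts the invariant chain in antigen-presenting cells, had 84.0 and 90.5 FPKM in wild type and 1052, 888 and 1922 in tumors (log2 fold change 3.93, SE 0.47, adjusted p = 0.00808). March1, a ubiquitin ligase that removes class II from the surface of resting cells, rose by 3.28 (adjusted p = 0.00890). Lgmn and Ifi30, a lysosomal protease and a thiol reductase, rose by 1.93 and 1.82 (adjusted p = 0.0218 and 0.0276). Cst3, a secreted cathepsin inhibitor, fell by 1.61 on the log2 scale (adjusted p = 0.0241) and Ctsd, a lysosomal protease, fell by 1.38 (adjusted p = 0.0185).

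Of 21 tested regulators, 11 rose and 1 fell, with a median of 0.92. The interferon-gamma receptor genes Ifngr1 and Ifngr2 rose by 1.95 and 1.71 (adjusted p = 0.00580 and 0.00717), and the kinases Jak1 and Jak2 by 0.92 and 0.83 (adjusted p = 0.0362 and 0.0489). Irf1, an interferon-induced factor that acts on the Ciita promoter, read 22.8 and 21.6 FPKM in wild type and 39.8, 47.3 and 132 in tumors, with tumor 3 again the highest, and did not pass (log2 difference 1.78, SE 0.62, adjusted p = 0.0803). Ifng itself had no fragment in wild type and 3, 1 and 29 fragments in tumors, too few to be tested. Irf8, a myeloid and B cell factor, rose by 3.62 (adjusted p = 0.00703), Socs1 and Socs3, feedback inhibitors of cytokine signaling, by 2.11 and 3.03 (adjusted p = 0.0451 and 0.00542), Nfkb1 and Relb by 1.38 and 1.44 (adjusted p = 0.0248 and 0.0299), and Ezh2, a histone methyltransferase that can silence MHC genes, by 1.16 (adjusted p = 0.0172).

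None of the genes for the constant factors of the upstream element rose. Rfx5, Rfxap and Rfxank, the RFX complex that binds the X box, differed by -0.23, -0.10 and -0.40 on the log2 scale and did not pass (adjusted p = 0.393, 0.665 and 0.179). Nfyc, a subunit of the Y box factor NF-Y, fell by 0.64 on the log2 scale (adjusted p = 0.0224), while Nfya and Nfyb, at 0.51 and -0.08, did not pass (adjusted p = 0.113 and 0.739).

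Receptors that read MHC molecules, and relatives such as Klrk1 and Lilrb4, were listed together and were low in wild type. Of 10 tested, 6 rose and none fell, but 4 of those that rose, Cd8a, Cd8b1, Klra2 and Klrk1, passed the filter through the tumor libraries alone, and of the 4 loci above it in wild type 2 rose. The CD8 co-receptor genes Cd8a and Cd8b1 rose by 4.83 and 4.50 (adjusted p = 0.0301 and 0.0300), from at most 0.184 FPKM in wild type to between 1.37 and 7.31 in tumors. Cd4 read 1.93 and 1.91 FPKM in wild type and 5.93, 3.18 and 11.8 in tumors, and did not pass (log2 difference 1.91, adjusted p = 0.0679). Klra2, a Ly49 receptor, read 0.141 and 0.254 FPKM in wild type and 24.5, 11.8 and 44.3 in tumors and rose by 7.06 (SE 0.86, adjusted p = 0.00833). Klrk1, which encodes NKG2D, rose by 4.54 (adjusted p = 0.0248). Lilrb3 and Lilrb4, inhibitory receptors of myeloid cells, rose by 3.76 and 3.35 (adjusted p = 0.0151 and 0.0296).

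The calls rested on both wild-type libraries. With either of them left out edgeR called none of the members and 0% of all loci, while 32 and 31 members had an unadjusted p under 0.05. DESeq2 called 30 members without the first wild-type library, where 18.5% of all loci were called, and 28 without the second, where 18.2% were; 28 and 27 of these were also called by edgeR with all libraries. H2-K2, H2-Q10, H2-Q2 and Psmb10 were lost in both of those fits and Mr1 in the second. With all 5 libraries DESeq2 called 43.3% of its loci and kept the 32 members called by edgeR. Without tumor 3, edgeR called 31 members and 35.2% of all loci, and H2-Q2 was lost. There the fold of Ciita, Nlrc5, H2-M2, H2-Q6, H2-Q7, H2-DMa, H2-DMb2, Tap1, Psmb8 and Psmb9 dropped by more than 1.5 times, to log2 fold changes of 5.47, 3.23, 5.91, 4.08, 4.21, 3.94, 4.42, 2.34, 2.51 and 2.06.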

How the data were processed

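RNA was measured in 2 wild-type uveal and 3 eye tumor libraries, grouped by the submitters' labels. The submitters' processing notes name mm10 and the tools TopHat2 2.0.9, Cufflinks 2.2.1 and Cuffdiff. The sources used here state no annotation, read filter or strand setting, so overlapping and antisense genes cannot be told apart. Per the file headers, the authors deposited an estimated count of fragments and an FPKM for each replicate. Their other deposited tables hold group values: the deposited FPKM per group lay within 1% of the replicate mean at 100% of the loci above 1 FPKM. Their deposited signal column, a count scaled between libraries, served only to check that scaling.

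Estimated counts of the 23141 named loci were rounded to whole numbers (254 of the 265 member values were whole already). The 1627 unnamed loci, 1.52% to 4.37% of fragments, were left out. edgeR 4.0.16 (R 4.3.3) fitted all 5 libraries with TMM factors, filterByExpr at a minimum count of 10 and the quasi-likelihood F-test, with Benjamini-Hochberg adjustment over all 15241 tested loci; calls have an adjusted p under 0.05. The code was tested on simulated data. Alternatives were DESeq2 1.42.0, other scalings and filters, limma-trend (limma 3.58.1) on log2(FPKM + 1) or log2(FPKM + 0.1), and each library left out. Gene positions come from GENCODE vM21 and promoters from RefSeq (GRCm38.p6). The 5 loci with several names were kept. Every member was named, with its value per library where a group mean reached 1 FPKM, and other pathway genes where they passed the test, except that some listed genes are not reported here. Members and lists were chosen with earlier results of these data known. Libraries carry the numbers of the deposited table's order, which nothing ties to those of the labels. No sequence or position is given for Cd74.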

Additional observations from a re-analysis of the deposited data

How the results depend on the processing

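The limits are the number of wild-type libraries and the spread among tumors. With either of the wild-type libraries left out, edgeR made 0 calls in every count given here, over all loci and for each class and list, although 4085 and 3996 loci had an unadjusted p under 0.05. DESeq2 without the same libraries called 1641 and 1605 loci up and 1187 and 1188 down. Over the fits with a library left out, member rises ran from 0 to 31 (edgeR; DESeq2 up to 32) and falls from 0 to 1, classical class I rises from 0 to 2, non-classical rises from 0 to 12, class II rises from 0 to 10, and rises among loading, immunoproteasome and regulator members from 0 to 9. Other pathway genes had 0 to 29 rises (DESeq2 up to 34) and 0 to 5 falls, and all loci 0 to 3032 rises (3364) and 0 to 3112 falls (3409). Mr1 lost its fall in DESeq2 without wild-type library 2, which left 0 falls (adjusted p = 0.0899). Other pathway genes gave 17 rises in DESeq2 without wild-type library 1, and 5 falls in DESeq2 with all libraries and without tumor 3, against 26 rises and 3 falls. H2-Ke2 turned to 0.0043 in DESeq2 without wild-type library 1, and H2-Ke6 to -0.24 in each limma-trend setting, to -0.034 without wild-type library 2 and to -0.030 in DESeq2 without it, against up to 0.13 without tumor 1, none past the threshold; the cause was not tested. Of the members' log2 fold changes under alternatives, 652 kept direction and call, 75 lost the call, 11 gained it and 6 changed sign. Under DESeq2 with all libraries the 32 calls remained and H2-T10 was added; a minimum count of 30 removed H2-Eb2, H2-Q10 and H2-Q2 from the test. No scaling moved the median of all loci by more than 0.1. No paired analysis was possible because the replicate numbers of the deposited table could not be tied to those of the labels and only name libraries of a group.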

Other observations

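Other genes of the MHC region gave a contrast to the members that lie among them. Between the outermost member loci on chromosome 17 (33915930 to 37483618, mm10) lay 147 named loci that are not members. Of the 95 tested, 19 rose (20%) and 5 fell (5.26%), with a median log2 fold change of 0.15, against 18.7% and 15.4% over all loci and a median of 0.05. Loci of this set such as Gm7030, which rose (adjusted p = 0.0446), and Gm11127, which did not pass, share sequence windows with class I members. Several of the loci that rose are known from leukocytes. Aif1, the macrophage protein IBA1, read 8.99 and 8.53 FPKM in wild type and 149, 93.0 and 320.0 in tumors (log2 fold change 4.49, adjusted p = 0.0118). Lst1 read 22.9 and 19.6 FPKM in wild type and 250.3, 132 and 393 in tumors (3.65, adjusted p = 0.0126), and Ltb, the lymphotoxin beta chain, 1.84 and 1.54 FPKM and then 21.4, 17.002 and 31.0 (3.82, adjusted p = 0.00641). In these genes tumor 2 was the lowest of the tumors and tumor 3 the highest. Neu1, a lysosomal sialidase, and Atp6v1g2, a proton pump subunit known from neurons, fell by 1.02 and 1.58 on the log2 scale (adjusted p = 0.0259 and 0.0174). Named after their values were seen, these genes carry no rule of choice.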
